A study of Mus musculus with 6 samples.

Results

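Tetraspanins are a family of small membrane proteins, encoded in the mouse by the numbered *Tspan* genes and by a set of genes that kept older names such as *Cd9*, *Cd63* and *Upk1a*. Their transcripts were compared between tuft-like and non-tuft-like medullary thymic epithelial cells (mTEC), and the 31 genes with such names were taken from the 52636 gene rows of the count table. All 31 had enough counts to be tested. The cells came from C57BL/6 mice aged 6 weeks, for which no treatment or altered gene is given, and 3 libraries were made of each population. Cells of both groups bound the lectin UEA1, had little MHCII, had little or no CD80 (negative in the labels, low in the study's text) and lacked surface Sca1 and CD63. In the study's gating, both were taken from cells without CD45 and with EpCAM1 at the surface. Tuft-like cells were positive for CD117, the product of *Kit*, and for CD66a, the product of *Ceacam1*, and non-tuft-like cells carried neither. Sources used here do not say whether the 3 libraries of a group came from separate mice, so that p-values measure the spread between these libraries, which may be technical.

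Tetraspanins cross the membrane several times and gather integrins, proteases and receptors into patches known as tetraspanin-enriched microdomains. Some travel mainly between endosomes and the cell surface and mark extracellular vesicles (CD63), others guide the protease ADAM10 out of the endoplasmic reticulum (the TspanC8 subgroup), and others are restricted to leukocytes (CD37, CD53), to the urothelium (uroplakins) or to the discs of photoreceptors (peripherin 2 and ROM1). In the thymus, the medullary epithelium expresses many genes of peripheral tissues, and *Tspan8* is among the genes whose expression there is enhanced by the transcriptional regulator AIRE. CD63 also formed part of the sort itself, since both populations were chosen for its absence from the cell surface.

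The tuft-like label was met by the transcripts of tuft cell genes. All 8 tuft cell markers (among them *Dclk1*, *Trpm5* and *Avil*) were higher in tuft-like mTEC by edgeR's quasi-likelihood test, with a summed level between 9516 and 15540 CPM (a gene's reads scaled to a common library size, with TMM normalization) against 571 to 736 CPM in non-tuft-like mTEC. The epithelial genes *Epcam* and *Krt8* were present in all 6 libraries, with 229.5 CPM as the lowest value. The other 3 of 5 thymic epithelial genes were lower in every tuft-like library than in any non-tuft-like library, with log2 fold changes of -3.48 for *Foxn1* (edgeR FDR 0.00043), -3.02 for *Krt5* (FDR 0.0985) and -1.01 for *Cldn4* (FDR 0.553). Of the 4 genes of mature mTEC, 3 were lower in tuft-like mTEC, among them *Aire*. Another was the MHCII gene *H2-Ab1* (log2 fold change -2.14, edgeR FDR 0.04), although both sorts took cells with little MHCII. Of the genes that separate the sorts, *Ceacam1* was higher in tuft-like mTEC (log2 fold change 4.12, edgeR FDR 0.000886). *Kit* was higher in every tuft-like library without passing the test (log2 fold change 1.24, edgeR FDR 0.0678). It had 141 to 185 CPM in the non-tuft-like libraries. Between 20097617 and 48369825 reads per library were assigned to genes, of which 65920 to 182964 fell on tetraspanin genes, so that 3 counts, the limit that a count of 0 allows, equalled 0.0639 to 0.124 CPM. Such limits cover counting error only. Values of single libraries are given in the order of replicates 1, 2 and 3. The share of reads assigned to no gene ranged from 19.7% to 61.6%, with both extremes in the tuft-like group (replicates 3 and 1).

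Among the 31 tetraspanin genes, 3 were higher in tuft-like mTEC (*Cd37*, *Tspan6* and *Tspan13*), 0 were lower and 28 did not pass the false discovery rate (FDR) of 0.05. The same test called 2.11% of all 32496 genes tested, 1.16% as higher and 0.951% as lower in tuft-like mTEC. Without tuft-like replicate 3 the balance turned, from 378 higher and 309 lower to 310 higher and 612 lower among all genes, and from 3 and 0 to 2 (*Cd37* and *Tspan6*) and 2 (*Cd63* and *Cd82*) among the tetraspanin genes. When the mean of the higher group reached 50 CPM, 9.48% of genes were called, and *Tspan6* and *Tspan13* were the 2 called of 13 tetraspanin genes at that level. An unadjusted p under 0.05 was reached by 6 tetraspanin genes, against 8.97% of all genes tested, the others being *Tspan1*, *Cd82* and *Cd63*. Among genes of at least 50 CPM it was reached by 1625 of 5699, and by 5 of the 13 tetraspanin genes. DESeq2 called the same 6 tetraspanin genes, *Cd82* and *Cd63* as lower. It made more false calls than edgeR on 1 set of counts simulated from edgeR's own dispersions, a setting that may favour edgeR. With limma voom, *Cd82* was also called as lower (FDR 0.00153), and *Cd63* was not called (FDR 0.0583). The median log2 fold change (tuft-like over non-tuft-like) of the 31 genes was 0.09, beside 0.02 for all genes tested, with 17 values above and 14 below 0. In 6 genes the lowest tuft-like value lay above the highest non-tuft-like value (*Cd37*, *Tspan10*, *Tspan6*, *Tspan13*, *Tspan1* and *Tspan12*), and in 4 the order was the opposite (*Cd63*, *Cd82*, *Tspan9* and *Tspan18*). Over all genes tested, 7.18% and 8.85% were separated in these directions, 16.0% in all. Among the 5699 genes of at least 50 CPM, 827 and 987 were separated, beside 3 and 2 of the 13 tetraspanin genes at that level. For each single gene an exact permutation test of 3 against 3 libraries cannot give a two-sided p below 0.10, which is the value the 10 separated tetraspanin genes had. In bulk samples, fewer cells of a type and less RNA per cell cannot be told apart.

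**Figure D1:**
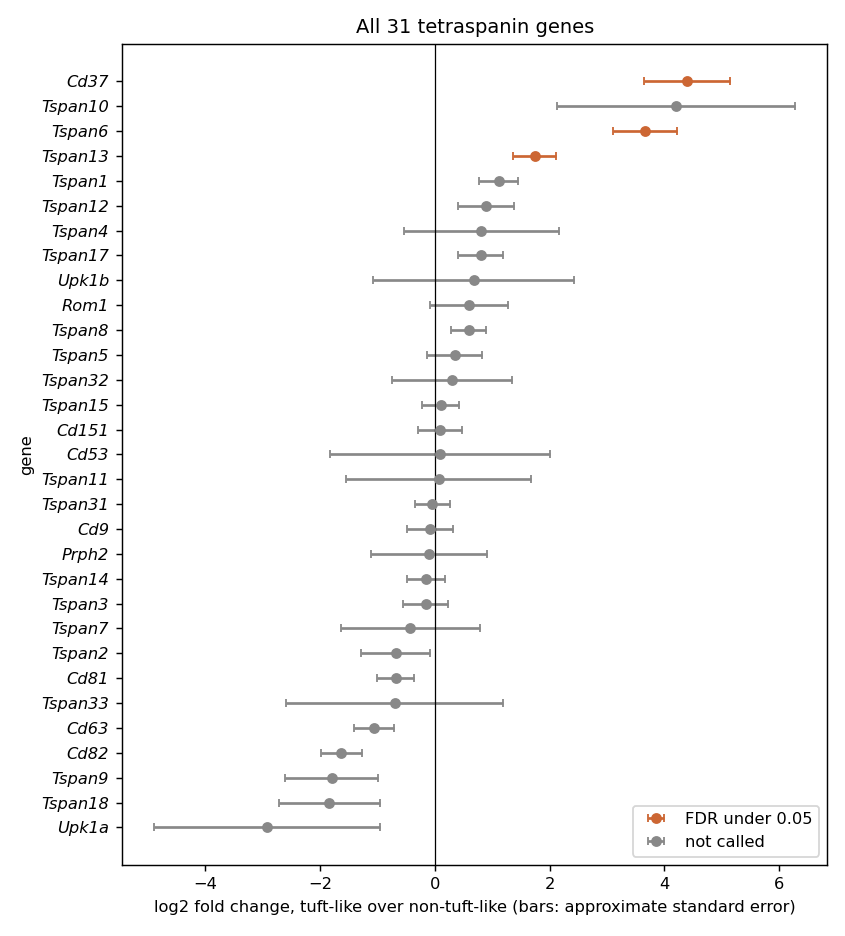
Log2 fold changes of the 31 tetraspanin genes (horizontal axis, tuft-like over non-tuft-like, in log2 units; vertical axis, genes in order of the change). Points are estimates from edgeR and bars are approximate standard errors; the 3 coloured genes, *Cd37* (4.40), *Tspan6* (3.66) and *Tspan13* (1.74), passed an FDR of 0.05, and *Tspan10* and *Upk1a* lie far from 0 with wide bars.

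The upstream sequences of 3 genes that differ in short motifs are shown. Of these, *Tspan6* and *Tspan13* were called, and *Tspan8* gave the study a stained protein and was not called. *Cd37*, also called, and *Cd63* and *Cd9*, whose proteins were also stained, are not shown. The promoters of 29 of the 31 genes were found in RefSeq's table (GRCm38.p6), 39 promoters in all since some genes have several, and the 250 bases before each start site were searched on both strands. The octamer ATGCAAAT is read by POU factors such as the tuft cell regulator POU2F3. It was found in 2 of the 39 promoters, 1 of *Tspan13* and 1 of *Tspan8*, and in 1.6% of all 32851 promoters. Both of these genes are among those shown, and whether such matches go with expression was not tested. The letters CCAAT (the CCAAT box) were found in 12 of the 39 promoters and in 33.8% of all promoters. The letters GGGCGG (the GC box) were found in 17 of the 39 and in 32.7% of all promoters. The letters TATAAA (the TATA box) were found in 1 of the 39 (*Tspan12*) and in 12.4% of all promoters. The motifs were chosen with the expression results known. No motif overlapped another in the sequences below, in which capitals mark the matches (the octamer on the reverse strand, a CCAAT box and a GC box in *Tspan13*, the octamer in *Tspan8*, and none in *Tspan6*). The windows are chr12:36042479-36042728 (minus strand) for *Tspan13*, chr10:115817034-115817283 (plus strand) for *Tspan8* and chrX:133898430-133898679 (minus strand) for *Tspan6*, each written 5′ to 3′ along the gene. The last bases of the *Tspan13* and *Tspan8* windows lie in first exons of other GENCODE transcripts, and the rest of the *Tspan8* window lies in the first intron of a further transcript that starts upstream of it.
Tspan13: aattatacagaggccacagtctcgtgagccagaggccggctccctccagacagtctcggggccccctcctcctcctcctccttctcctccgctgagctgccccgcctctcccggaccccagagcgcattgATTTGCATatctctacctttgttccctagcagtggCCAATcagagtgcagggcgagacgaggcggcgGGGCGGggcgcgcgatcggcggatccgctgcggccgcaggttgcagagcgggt
Tspan8: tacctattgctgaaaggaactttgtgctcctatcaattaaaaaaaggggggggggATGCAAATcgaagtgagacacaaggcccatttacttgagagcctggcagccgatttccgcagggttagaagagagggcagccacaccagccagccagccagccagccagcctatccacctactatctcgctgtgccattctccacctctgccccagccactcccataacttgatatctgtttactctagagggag
Tspan6: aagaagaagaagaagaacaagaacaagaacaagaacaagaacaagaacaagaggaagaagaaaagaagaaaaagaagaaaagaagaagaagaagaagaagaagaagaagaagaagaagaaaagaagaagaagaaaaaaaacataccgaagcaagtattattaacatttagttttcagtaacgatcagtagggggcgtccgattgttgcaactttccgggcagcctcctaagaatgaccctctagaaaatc

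A match is a description of these letters and not of a bound site. The guanine and cytosine share of the windows was 66% in *Tspan13*, 52.4% in *Tspan8* and 36% in *Tspan6*.

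*Tspan6* (ENSMUSG00000067377, chromosome X of mm10, 133891068 to 133898429) is known as a negative regulator of RIG-I-like receptor signalling. The gene had 303, 381 and 471 CPM in the tuft-like replicates, and 13.8, 59.1 and 18.2 CPM in the non-tuft-like replicates. Non-tuft-like replicate 2 stood above its fellows, and the groups were well apart. The means were 385 ± 84.1 and 30.4 ± 25.0 CPM (SD, n = 3 libraries each), and the log2 fold change was 3.66 with an approximate standard error (SE) of 0.55 (edgeR FDR 0.00632). *Tspan6* was called under all 14 alternative settings (log2 fold change 3.28 to 4.59, FDR 7.16e-14 to 0.0211), including each omission of a library.

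*Cd37* (ENSMUSG00000030798, chromosome 7, 45233632 to 45239115) encodes a leukocyte tetraspanin best known from B cells. Its counts were 436, 942 and 1661 in tuft-like replicates 1, 2 and 3, or 18.0, 27.5 and 45.9 CPM, against 12, 98 and 58 counts in the non-tuft-like libraries, or 0.379, 2.09 and 1.84 CPM. Levels were low in both groups but did not overlap, and the log2 fold change was 4.40 (SE 0.75, edgeR FDR 0.0133). In non-tuft-like mTEC all 3 libraries stayed below the 99th percentile of 1092 olfactory receptor genes per exon length, taken as a measure of background, and in tuft-like mTEC all 3 exceeded it. Each omission of a library kept the call (FDR 0.0138 to 0.0362), whereas limma voom (FDR 0.0704) and subtraction of background reads (FDR 0.0624) did not, nor did an FDR of 0.01, which leaves 11 of 14 settings with a call.

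The other leukocyte tetraspanins did not follow *Cd37*. *Cd53* had 1.36, 0.848 and 1.24 CPM in the tuft-like and 2.68, 0 and 0.572 CPM in the non-tuft-like replicates, and *Tspan32* had 6.49, 2.81 and 7.48 against 1.01, 2.32 and 10.3 CPM. Both stayed below the olfactory receptor percentile in all 6 libraries. Of 10 leukocyte markers, 1 passed the test, and it was lower in tuft-like mTEC (*Cd52*, which encodes a small surface glycoprotein, log2 fold change -2.94, edgeR FDR 0.00223). Their summed level ran from 622 to 945 CPM in non-tuft-like and from 570 to 844 CPM in tuft-like mTEC, and 0 of the 10 were at 0 throughout. The B cell gene *Cd79a* reached at most 1.61 CPM in any library. *Ptprc*, which encodes the leukocyte marker CD45, overlapped between the groups, at 33.7, 27.6 and 8.31 CPM in the tuft-like and 3.41, 10.9 and 11.7 CPM in the non-tuft-like replicates. *Rac2*, a GTPase gene of blood cells, was higher in every tuft-like library without passing the test, at 124, 188 and 300.1 CPM against 119, 75.2 and 52.3 CPM (log2 fold change 1.31, edgeR FDR 0.19). *Coro1a* and *Itgam* were lower in every tuft-like library, also without passing the test (log2 fold changes -0.88 and -2.66). *Itgam* stayed below the olfactory receptor percentile in all 6 libraries. Tuft-like replicate 3, which had most *Cd37*, also had the highest value of its group for 5 of the 10 markers (*Rac2*, *Laptm5*, *Lyz2*, *Cd52* and *Coro1a*) and the lowest for the other 5, among them *Ptprc*. The part of these cells' transcripts in the level of *Cd37* was not tested. The 5 endothelial markers summed to 35.7 to 63.7 CPM in non-tuft-like and 171 to 338 CPM in tuft-like mTEC, and only *Tek* was called among them. Much of the tuft-like sums was *Tek*, with 169, 142 and 225 CPM in the tuft-like and 22.2, 36.7 and 11.4 CPM in the non-tuft-like replicates. *Pecam1* and *Kdr* exceeded the olfactory receptor percentile only in tuft-like replicate 1, and *Cdh5* and *Emcn* in 0 libraries. *Pecam1* had 106, 8.16 and 3.07 CPM in the tuft-like replicates and at most 8.99 CPM in non-tuft-like mTEC. *Cdh5* had 11.1, 2.54 and 2.40 CPM against at most 3.11 CPM. The 5 fibroblast markers, with 0 calls, summed to 159.6, 70.9 and 14.1 CPM in the tuft-like replicates. In the non-tuft-like replicates they summed to 36.7, 31.4 and 60.0 CPM. The part of such transcripts in the levels of tetraspanin genes was not tested.

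**Figure D2:**
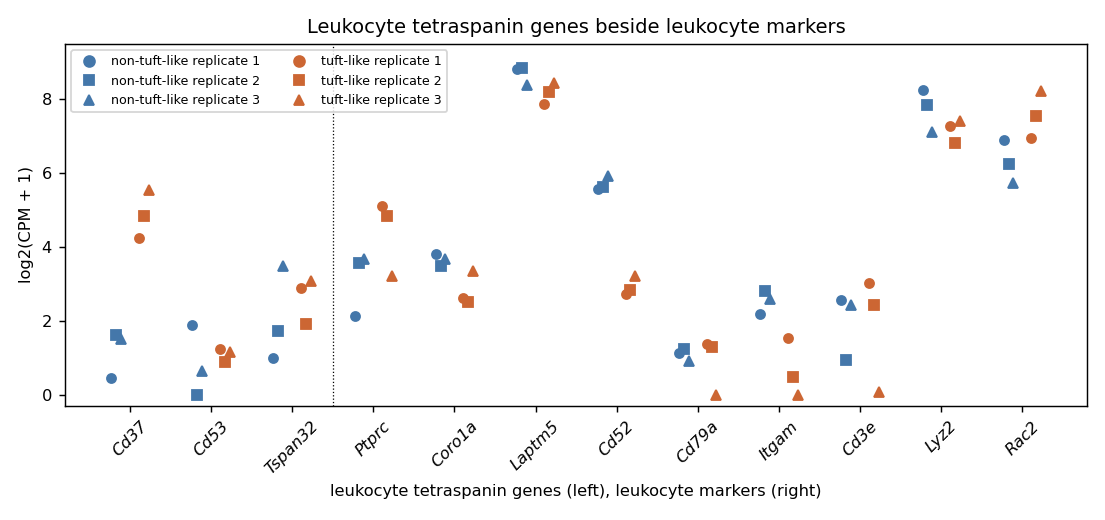
Levels of 3 leukocyte tetraspanin genes (left of the dotted line) and 9 of the 10 leukocyte marker genes (right) in each library, as log2(CPM + 1) on the vertical axis. Points are libraries, coloured by group and shaped by replicate number; *Cd37* and *Rac2* are higher in every tuft-like library, *Cd53* and *Tspan32* overlap, and *Cd52*, *Coro1a* and *Itgam* are lower in every tuft-like library.

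*Tspan13* (ENSMUSG00000020577, chromosome 12, 36014557 to 36042500), also known as NET-6, was the third gene called. It had 167, 216 and 372 CPM in the tuft-like and 89.1, 85.4 and 51.4 CPM in the non-tuft-like replicates. The groups did not overlap, but tuft-like replicate 3 stood well above the other tuft-like libraries. The log2 fold change of 1.74 (SE 0.37, edgeR FDR 0.0415) passed narrowly. The call was lost without any non-tuft-like library or without tuft-like replicate 2 or 3 (edgeR FDR 0.0739 to 0.146), and it was kept without tuft-like replicate 1 (FDR 0.0172), with the log2 fold change between 1.31 and 1.97.

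*Tspan1* (ENSMUSG00000028699, chromosome 4, 116161869 to 116167601) is an epithelial tetraspanin, and after *Cd9* it had the highest level per exon length in tuft-like mTEC. It had 475, 631 and 792 CPM in the tuft-like and 378, 286 and 212 CPM in the non-tuft-like replicates. The groups did not overlap, and the log2 fold change was 1.11 (SE 0.34), but the gene did not pass the threshold (edgeR FDR 0.188). DESeq2 (FDR 0.00192), limma voom (FDR 0.022) and subtraction of background reads (FDR 0.0181) called it.

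*Tspan8* (ENSMUSG00000034127, chromosome 10, 115816832 to 115849893), whose protein the study stained on tuft-like mTEC, was present in both populations. It had 87.0, 140.0 and 169.6 CPM in the tuft-like and 74.2, 88.2 and 100.3 CPM in the non-tuft-like replicates. Tuft-like replicate 1 lay within the range of the non-tuft-like libraries. The means were 132 ± 41.8 and 87.5 ± 13.1 CPM (SD, n = 3), the log2 fold change was 0.59 (SE 0.31, edgeR FDR 0.722), and 0 of 14 alternatives called it. *Aire*, beside it, stood at 235 to 341 CPM in non-tuft-like and 18.8 to 23.4 CPM in tuft-like mTEC (log2 fold change -3.83, edgeR FDR 0.000334).

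**Figure D3:**
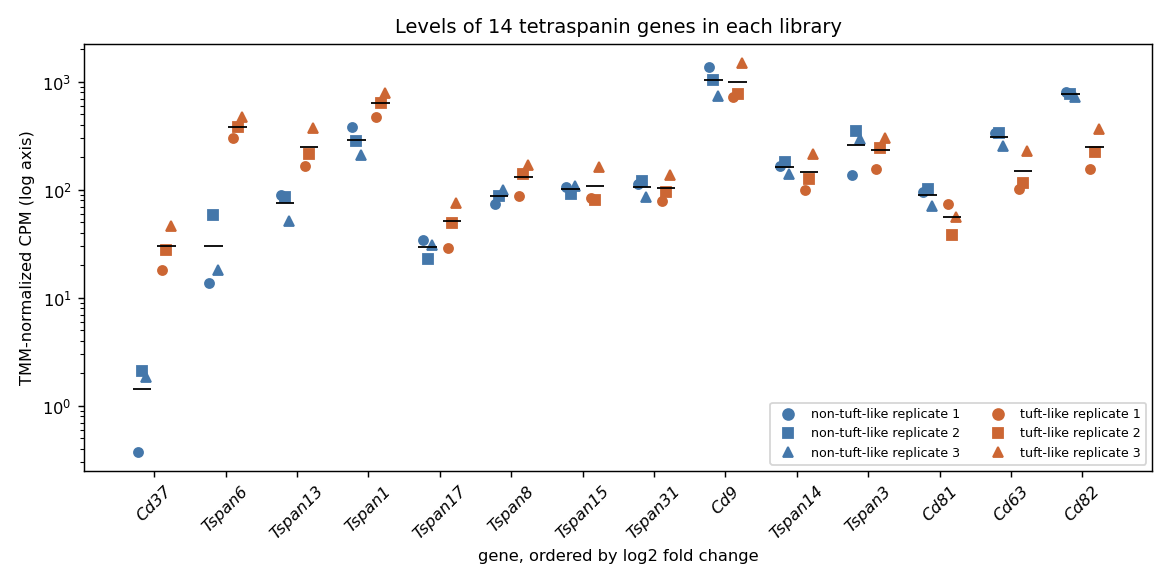
Levels of the 14 tetraspanin genes that were called, had at least 50 CPM in the higher group or were stained as proteins in the study (horizontal axis, ordered by log2 fold change; vertical axis, TMM-normalized CPM on a log scale). Points are libraries and black lines are group means (n = 3); the groups are apart for *Cd37*, *Tspan6*, *Tspan13* and *Tspan1* on the left and for *Cd63* and *Cd82* on the right, and triangles of the tuft-like group (replicate 3) are the highest of their group for 13 of the 14 genes.

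*Cd63* (ENSMUSG00000025351, chromosome 10, 128900989 to 128912822) encodes a tetraspanin of late endosomes and lysosomes. Although both sorts required cells without CD63 at the surface, its transcript was abundant in all 6 libraries. It had 339.9, 333 and 254 CPM in non-tuft-like and 102, 115 and 227 CPM in the tuft-like replicates. Every tuft-like library was below every non-tuft-like library, and the means were 148 ± 68.8 and 309 ± 47.6 CPM (SD, n = 3). At -1.06 (SE 0.35), the log2 fold change missed the threshold (edgeR FDR 0.252). Without tuft-like replicate 3 it was -1.55 and passed (FDR 0.0186), as it did with DESeq2 (FDR 0.0213) and after subtraction of background reads (FDR 0.0285). *Ly6a*, which encodes Sca1, the other protein that both sorts required to be absent, was likewise detected in every library, at 25.7 to 98.6 CPM.

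*Cd82* (ENSMUSG00000027215, chromosome 2, 93419111 to 93463140), known as a suppressor of metastasis that slows cell migration, had the most negative log2 fold change among the 13 tetraspanin genes of at least 50 CPM. It had 811, 769 and 717 CPM in non-tuft-like and 157, 223 and 365 CPM in the tuft-like replicates. The groups were well apart, with means of 766 ± 47.2 and 248 ± 107 CPM (SD, n = 3). The log2 fold change of -1.63 (SE 0.36) fell just outside the threshold (edgeR FDR 0.052), and 7 of 14 alternatives called it, with an FDR of 5.58e-06 to 0.343 over all 14. Without tuft-like replicate 3 it was -2.05 (edgeR FDR 0.00635). That library also had most of the keratinocyte markers within its group, which summed to 120, 465 and 1268 CPM in the tuft-like replicates and to 3038, 4741 and 4938 CPM in the non-tuft-like libraries. The markers of mature mTEC summed to 819, 1042 and 1765 CPM in the tuft-like and to 5883, 6024 and 4918 CPM in the non-tuft-like replicates. All 7 keratinocyte genes and all 4 genes of mature mTEC had counts in every library, although *Cd80* exceeded the olfactory receptor percentile in 0 of 3 tuft-like libraries and *Lor*, *Krt1* and *Ivl* in 2 of 3, and 3 of each list were called lower in tuft-like mTEC. Their part in the levels of *Cd63* and *Cd82* was not tested.

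The remaining broadly expressed CD tetraspanins did not pass the test in either direction. *Cd9*, abundant in most epithelia, was the highest of the family per exon length in both groups, and it had 727, 777 and 1483 CPM in the tuft-like and 1368, 1047 and 734 CPM in the non-tuft-like replicates. The groups covered almost the same range (log2 fold change -0.08, SE 0.40, edgeR FDR 1), and the sign turned when single libraries were left out (-0.52 to 0.13). *Cd81*, a partner of many receptors, had 73.7, 38.2 and 56.1 CPM in the tuft-like and 96.6, 102 and 71.5 CPM in the non-tuft-like replicates, with an overlap (log2 fold change -0.68, SE 0.32, edgeR FDR 0.594). *Cd151*, which binds laminin-binding integrins, had 21.3 to 41.6 CPM in tuft-like and 24.1 to 31.2 CPM in non-tuft-like mTEC (log2 fold change 0.09, SE 0.38, edgeR FDR 1).

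The TspanC8 tetraspanins, which bind ADAM10 and direct it to different substrates, had 6 members and 0 calls (edgeR's quasi-likelihood test, 0 with an unadjusted p under 0.05, 0 by DESeq2 and 0 by limma voom). *Tspan14*, *Tspan15* and *Tspan17* were the abundant ones. *Tspan14* had 99.1, 127 and 215 CPM in the tuft-like and 167, 183 and 140.3 CPM in the non-tuft-like replicates, and *Tspan15* had 85.0, 81.2 and 163 against 107, 91.7 and 108 CPM. Both overlapped between the groups (log2 fold changes -0.15 and 0.10, standard errors 0.33 and 0.32). *Tspan17* had 29.1, 49.7 and 75.2 CPM in the tuft-like and 34.2, 23.1 and 30.9 CPM in the non-tuft-like replicates (log2 fold change 0.80, SE 0.39, edgeR FDR 0.643). *Tspan5* was lower, at 11.8 to 47.4 CPM over all libraries, and *Tspan33* stayed at or below 7.85 CPM. *Tspan10* had 136, 108 and 50 counts in tuft-like and 0, 25 and 0 counts in the non-tuft-like replicates. These counts did not overlap, but with so few reads the log2 fold change of 4.20 had a standard error of 2.08 (edgeR FDR 0.666), and 1 of the 6 libraries, a tuft-like one, exceeded the olfactory receptor percentile.

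Among the other numbered genes, *Tspan3* and *Tspan31* were expressed at similar ranges in both groups. *Tspan3* had 155, 242 and 302 CPM in the tuft-like and 137, 350.0 and 295 CPM in the non-tuft-like replicates (log2 fold change -0.16, SE 0.39), and *Tspan31* had 78.4, 95.4 and 138 against 114, 121 and 85.4 CPM (log2 fold change -0.04, SE 0.30). The exons of *Tspan31* share 641 of 2193 bp with *Cdk4* on the other strand, and whether HTSeq used the strand is not given in the sources used here. Such overlaps also touch 218 bp of *Cd9*, 104 bp of *Cd81* and 193 bp of *Cd151*. *Tspan12*, a co-receptor of the Norrin receptor FZD4, had 18.5, 18.2 and 32.4 CPM in the tuft-like and 8.90, 11.3 and 17.0 CPM in the non-tuft-like replicates, without overlap but short of the threshold (log2 fold change 0.89, edgeR FDR 0.777). *Tspan9* and *Tspan18* had the opposite order. *Tspan9* had 7.07, 16.0 and 0.884 CPM in the tuft-like and 34.0, 21.3 and 27.2 CPM in the non-tuft-like replicates (log2 fold change -1.79, SE 0.81, edgeR FDR 0.566), and *Tspan18* had 12.7, 0.935 and 2.18 against 20.1, 19.8 and 16.3 CPM (log2 fold change -1.84, SE 0.88, edgeR FDR 0.631). *Tspan2* and *Tspan7* reached at most 39.2 and 25.3 CPM and overlapped, with 160 and 2 counts in tuft-like replicate 3. *Tspan4* and *Tspan11* stayed at or below 7.60 and 5.50 CPM.

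Tetraspanins of specialised membranes were scarce except for *Rom1*. *Upk1a* had 37, 1 and 0 counts in tuft-like and 172, 270 and 19 counts in the non-tuft-like replicates (log2 fold change -2.92, SE 1.97, edgeR FDR 1), and *Upk1b* had 140, 87 and 0 against 21, 58 and 104 counts. The uroplakins they pair with in the urothelium, *Upk2* and *Upk3a*, were not called either, and *Upk3a* varied from 0.820 to 65.9 CPM among the non-tuft-like libraries. *Prph2* had 2.02 to 6.31 CPM over the 6 libraries and *Rom1* 6.24 to 49.2 CPM. *Rom1* exceeded the olfactory receptor percentile in every library, with its highest level in tuft-like replicate 3. The 6 photoreceptor markers did not pass the test (edgeR FDR 1). Of all 31 tetraspanin genes, 19 exceeded the olfactory receptor percentile in all 3 non-tuft-like libraries and 17 in all 3 tuft-like libraries. The 5 that did so in 0 libraries were *Cd53*, *Tspan11*, *Tspan32*, *Tspan33* and *Upk1b*.

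The make-up of the family was then described within each library, as each gene's share of the summed CPM per kb of exon, a quantity that does not depend on the library's scaling. The sum itself overlapped between the groups, at 1117 to 1553 CPM per kb in non-tuft-like and 1120 to 2108 CPM per kb in tuft-like mTEC. *Cd9* made up 32.2% to 43.1% in non-tuft-like and 27.8% to 34.4% in tuft-like libraries. *Cd82* made up 17.4% to 21.4% in non-tuft-like and 4.65% to 5.77% in tuft-like libraries. *Cd63* made up 5.94% to 6.43% and 2.28% to 2.93%, respectively. The reverse order was seen for *Tspan1* (8.17% to 10.5% in non-tuft-like, 16.1% to 19.8% in tuft-like), *Tspan6* (0.431% to 2.04%, then 10.8% to 13.5%) and *Tspan13* (1.86% to 2.45%, then 6.02% to 7.13%). For *Cd82*, *Cd63* and *Tspan13* the shares of the tuft-like libraries were closer to each other than their CPM, which in replicate 3 were more than 1.5 times those of replicate 2. *Tspan8* overlapped (2.80% to 5.28%, then 4.57% to 6.02%). By mean level per kb, *Cd9*, *Cd82*, *Tspan1* and *Cd63* came first in non-tuft-like mTEC (514, 255, 126 and 83.9 CPM per kb), and *Cd9*, *Tspan1*, *Tspan6* and *Tspan13* in tuft-like mTEC (487, 272, 187 and 102 CPM per kb). Shares within a library sum to 100%, so that a rise of one gene lowers the others, and they were not tested.

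**Figure D4:**
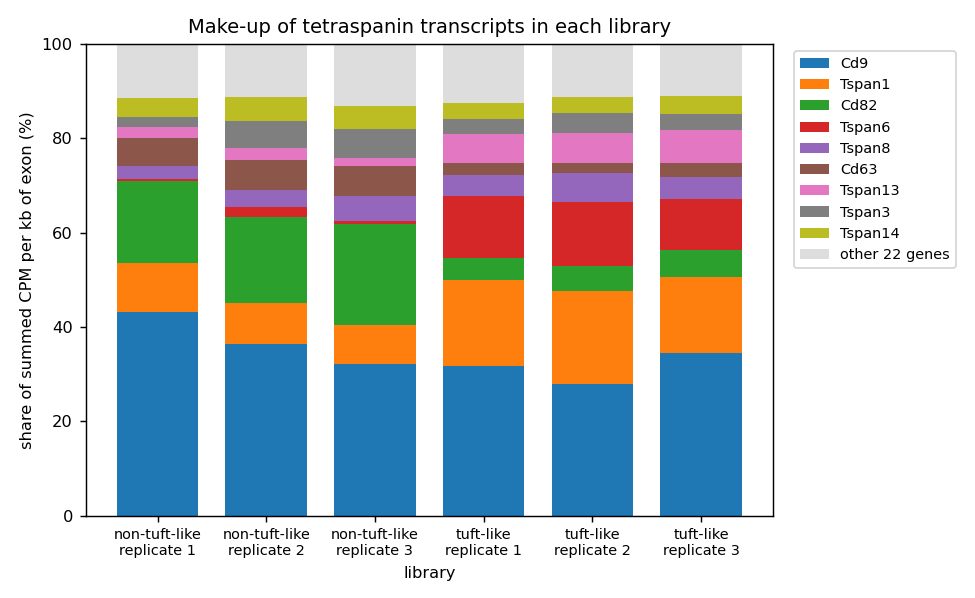
Share of each of the 9 most abundant tetraspanin genes, and of the other 22 together, in the family's summed CPM per kb of exon (vertical axis, percent) in each of the 6 libraries (horizontal axis). *Cd82* fills 17.4% to 21.4% of the non-tuft-like bars and at most 5.77% of the tuft-like bars, and *Tspan6* and *Tspan1* fill more of the tuft-like bars.

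Proteins that tetraspanins bind or direct were examined as a list of 41 genes, all of which were tested. The test called 1 as higher (*Cd47*) and 1 as lower (*Notch1*) in tuft-like mTEC, beside 2.11% of all genes, and the median log2 fold change was 0.10. *Cd47*, which encodes the "don't eat me" signal that restrains macrophages, had 567, 869 and 1051 CPM in the tuft-like and 259, 299 and 212 CPM in the non-tuft-like replicates (log2 fold change 1.69, SE 0.34, edgeR FDR 0.0308). *Notch1*, a receptor cleaved by ADAM10, had 49.4, 30.6 and 17.7 against 103, 162 and 117 CPM (log2 fold change -1.97, SE 0.39, edgeR FDR 0.030). *Cd47* was called without tuft-like replicate 1 or 3 and in no other omission of a library, and *Notch1* also without non-tuft-like replicate 1. *Adam10* itself had 131, 194 and 276 CPM in the tuft-like and 239, 230 and 190.2 CPM in the non-tuft-like replicates and overlapped (log2 fold change -0.13, SE 0.32). The integrin genes *Itga6* and *Itgb4*, whose products pair as a laminin receptor held by CD151, were below the non-tuft-like range in every tuft-like library without passing the threshold (log2 fold changes -1.52 and -1.10, edgeR FDR 0.0629 and 0.125). The integrin genes *Itga3* and *Itgb1* had positive values and overlapped (log2 fold changes 0.91 and 0.56, edgeR FDR 0.645 and 0.812). *Cd44* was higher in every tuft-like library without passing (log2 fold change 1.11, edgeR FDR 0.0795). In the whole list, 3 genes were higher and 7 lower in every tuft-like library, beside 7.18% and 8.85% of all genes tested. *Lamp2*, a lysosomal membrane gene, had the same order (log2 fold change -1.06, edgeR FDR 0.157), whereas *Lamp1* (0.05) and *Sdcbp* (0.36), which encodes the CD63 adaptor syntenin, overlapped. *Igsf8*, *Ptgfrn* and *Igsf3*, which encode immunoglobulin proteins bound by CD9 and CD81, had log2 fold changes of 0.59, -1.26 and -1.04 and were not called. Of 5 genes of the L6 family, which have a similar topology but are not tetraspanins, 4 were tested and did not pass (edgeR FDR 0.509 or above). All 4 log2 fold changes were negative, between -3.27 and -0.48, and the groups overlapped in each. The value of -3.27 (*Tm4sf20*) rested largely on 1 library, with 39.3, 4.94 and 0.159 CPM in the non-tuft-like and 1.57, 1.05 and 1.96 CPM in the tuft-like replicates.

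**Figure D5:**
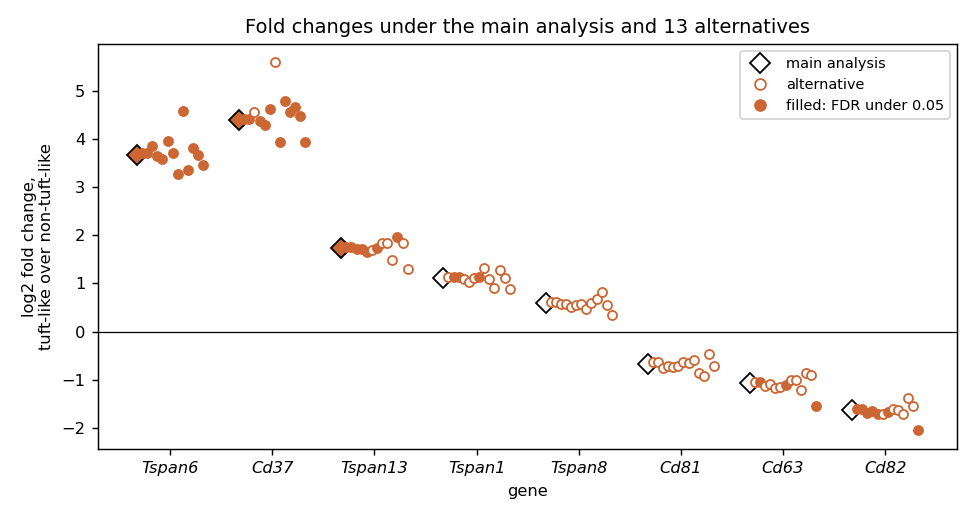
Log2 fold changes (vertical axis, tuft-like over non-tuft-like) of 8 tetraspanin genes under the main analysis (diamonds) and 13 alternatives (circles, the stricter FDR not drawn), filled where the FDR was under 0.05. *Tspan6* is filled throughout (3.28 to 4.59), *Tspan8* (0.34 to 0.83) and *Cd81* (-0.93 to -0.47) nowhere, and *Cd63* and *Cd82* stay below 0 with and without a call.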

How the data were processed

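RNA of sorted mTEC was sequenced with an ultra-low input kit. The authors used Trimmomatic 0.36 for adapter removal, STAR 2.7.3a for alignment (mm10) and HTSeq in intersection-nonempty mode for counting. They deposited the raw counts per gene, without normalization. Annotation release and strand setting are not given in the sources used here. Gene identifiers were named from GENCODE M21, which matched 99.72% of 52636 gene rows, and exon lengths are unions of its exons. The 92 ERCC rows (all 0) and 5 HTSeq summary rows were left out.

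Counts were filtered with filterByExpr (minimum count 10, minimum total 15), TMM-normalized and tested with edgeR 4.0.16 (quasi-likelihood, R 4.3.3), with Benjamini-Hochberg adjustment over all tested genes and without covariates. Standard errors are the absolute log2 fold change over the square root of F. Alternatives used RLE factors, DESeq2 1.42.0, limma 3.58.1 voom, other filters, an FDR of 0.01, subtraction of background reads (estimated per exon length from olfactory receptor genes), a replicate block and the omission of each library. In 1 set of counts simulated from edgeR's own dispersions, with 200 of 32496 genes changed, 60.5% of DESeq2's calls were false. The false share was 9.09% for edgeR and 11.9% for voom, and this setting may favour edgeR. There edgeR recovered 19.3% of log2 fold changes of 2 and 56.2% of those of 4, so that a gene not called may still differ. Genes were described in full if called, at 50 CPM or more in the higher group, or stained in the study (CD63, CD9, Tspan8). Members, lists and motifs were chosen with earlier results of these data known. Some marker genes are not reported here by name.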

Additional observations from a re-analysis of the deposited data

Results flagged for a closer look

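Reads without an assigned gene enter no comparison here, and in tuft-like replicate 1 they reached 61.6% of all reads, above the 34.4% to 52.5% of the non-tuft-like libraries. Within its group this library had the lowest level of 12 of the 14 tetraspanin genes described in full, and tuft-like replicate 3, with 19.7% of reads on no gene, the highest level of 13. Without tuft-like replicate 1 the same 3 tetraspanin genes were called. The part of these reads in the differences between replicates was not tested.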

How the results depend on the processing

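The 14 tetraspanin genes described in full were recomputed under 14 alternatives, 196 values in all. Of these, 163 kept direction and side of the threshold, 13 gained a call, 10 lost one and 10 changed sign, the last for genes without a call when single libraries were left out. Leaving out each library in turn gave log2 fold changes of -0.52 to 0.13 for *Cd9*, -0.57 to 0.07 for *Tspan14*, -0.34 to 0.28 for *Tspan15*, -0.49 to 0.12 for *Tspan3* and -0.33 to 0.13 for *Tspan31*. The 3 tetraspanin calls became 6 with DESeq2, 5 after background subtraction, 1 (*Tspan6*) at an FDR of 0.01, and 2 to 4 when libraries were left out. The 2 partner calls became 7 with DESeq2, 5 with voom, 6 with a filter of 1 CPM in 3 libraries, 6 after background subtraction, 0 at an FDR of 0.01, and 0 to 4 when libraries were left out. The 687 calls among all genes became 1904 with DESeq2, 1127 without a filter on low counts, 1054 after background subtraction, 319 at an FDR of 0.01, and 376 to 922 when libraries were left out (376 without tuft-like replicate 2, 379 without non-tuft-like replicate 2). Fewer calls at an FDR of 0.01 follow from the threshold, and otherwise the cause was not tested. With 3 libraries a group, low genes such as *Tspan10* and *Upk1a* had standard errors near 2 on the log2 scale.

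Sources used here do not say whether equal replicate numbers mark pairs. Deviations from the group means correlated at -0.096, -0.038 and -0.274 for numbers 1, 2 and 3. With 3 libraries a group, whose shares of unassigned reads differ, these values cannot tell whether equal numbers shared mice or a sort. With the number as a replicate block, 2 tetraspanin genes were called (*Tspan6* and *Cd37*, without *Tspan13* at an edgeR FDR of 0.0852), 1 partner gene (*Notch1*) and 737 genes in all.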

Other observations

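Of the 31 tetraspanin genes, which lie on 15 chromosomes, 4 pairs are neighbours with a gap under 200 kb. *Tspan18* and *Cd82* on chromosome 2, 84.6 kb apart, had log2 fold changes of -1.84 (SE 0.88) and -1.63 (SE 0.36), and in both every tuft-like library was below every non-tuft-like library. Neither was called (edgeR FDR 0.631 and 0.052), and *Tspan18* exceeded the olfactory receptor percentile in 2 non-tuft-like and 0 tuft-like libraries. *Tspan11* and *Tspan9* on chromosome 6, 7.4 kb apart, had 0.07 (SE 1.61) and -1.79 (SE 0.81). *Cd151* and *Tspan4* on chromosome 7, 3.8 kb apart, had 0.09 (SE 0.38) and 0.81 (SE 1.35). *Tspan32* and *Cd81* on the same chromosome, 33.1 kb apart, had 0.30 (SE 1.05) and -0.68 (SE 0.32). *Tspan11* and *Tspan32* stayed below the olfactory receptor percentile in all 6 libraries. With these standard errors the values within such a pair cannot be said to differ. All pairs under this gap are given, and they were looked up with the values known.

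The antisense genes *Tspan2os* and *Tspan32os*, which the naming rule leaves out, overlap 88 and 271 exonic bp of *Tspan2* and *Tspan32*. They had 0.189 to 1.90 CPM and 0 to 2.0 CPM over the 6 libraries and were not called (edgeR FDR 1 for both).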
